A study of Mus musculus with 12 samples.

Results

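BV2 cells, an immortalised line of mouse microglia, were cultured alone or with primary mouse neutrophils, and the RNA of these cultures was compared gene by gene. The culture of BV2 cells alone is labelled CTR and the co-culture is labelled Neu, and each group held 4 libraries of polyadenylated RNA. The whole series has 12 libraries. The remaining group, Neu+NETS, held BV2 cells with primary mouse neutrophils stimulated with PMA (phorbol 12-myristate 13-acetate), a protein kinase C activator that makes neutrophils expel webs of chromatin and granule proteins. The Neu+NETS libraries shared the filter, scaling and fit with the other groups, so they bear on the calls below. Their levels are used only to place genes already described in Neu. The BV2 line is common to all groups. No treatment is given for the CTR group, and no PMA for the neutrophils of the Neu group. The sources used here give neither the mouse strain, the number of neutrophils, the contact time nor the culture vessel, and do not say whether neutrophils were taken off before RNA was made. The labels name a tissue, retina, beside the cell line. BV2 is 1 transformed line, so it stands in for microglia without the signals of brain or retina. Nothing in the labels ties the 4 libraries of a group to separate cultures, and p-values therefore measure only the spread between these libraries.

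The table listed 27487 genes, and the 16387 that passed a filter on low counts make up the comparison. At an adjusted p under 0.05 (edgeR's quasi-likelihood test with Benjamini-Hochberg adjustment over all genes tested), 4284 genes were higher in Neu than in CTR, which is 26.1% of the genes tested, and 4578 were lower, which is 27.9%. In either direction 54.1% were called. Because so many genes passed, each gene group below is to be read beside these shares and beside the median log2 fold change over all genes tested, which was 0.020. The gene groups were chosen with earlier results of these data known, so their shares are descriptions and not tests. Below, rose and fell mean called higher and called lower in Neu.

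Cells read their oxygen supply through prolyl hydroxylases, which mark the alpha subunits of hypoxia-inducible factor for recognition by the von Hippel-Lindau protein and destruction. When the hydroxylases are slowed, the factor enters the nucleus, binds sites built around the letters ACGTG and raises genes for glucose uptake, glycolysis, mitochondrial turnover and vessel growth. Macrophages and microglia also build up this programme during inflammatory activation, together with inducible nitric oxide synthase. Proliferating cells, in contrast, spend much of their RNA on ribosome assembly, nucleotide supply and the copying of DNA, whose genes are driven by Myc and E2F factors.

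The 4 CTR libraries held 53512190 to 62744568 estimated counts and the 4 Neu libraries 62127810 to 64181499. Of these units, 4 may stand for 1 sequenced fragment, which was not settled. Between libraries of the same group, Pearson's r of log2 depth-scaled counts over genes was 0.977 to 0.988, and between a CTR and a Neu library it was 0.960 to 0.965. Among the genes named below, Neu library 4 was more often than the others at the edge of its group, and without it 4164 genes were higher in Neu and 4511 lower. Markers of the line's own cell type were present: Cd68, a lysosomal glycoprotein of macrophages, stood at 419 ± 18.2 FPKM (fragment numbers corrected for the length of the transcript and the size of the library, mean ± SD, n = 4) in CTR and 378 ± 8.54 FPKM in Neu, and Fcer1g, an adaptor of Fc receptors, at 214 ± 10 and 254 ± 6.96 FPKM. P2ry12 and Tmem119, which mark resting microglia in tissue, were low, with 0.658 ± 0.19 and 3.67 ± 0.278 FPKM in CTR. Sall1 and Siglech, which also mark microglia in tissue, were not analysed here. Of the photoreceptor and retinal glia markers, only Pde6b and Sag passed the filter, both under 1 FPKM, and the other retinal markers in the table did not pass.

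Neutrophil RNA was looked for first, because the Neu libraries came from a culture of both cell types. Of 19 genes written down as markers of mature neutrophils, 13 were in the table and 11 passed the filter, and 6 of these rose and 0 fell, or 1 fell without Neu library 1, by DESeq2, by limma on FPKM, with the 8 libraries alone or with counts divided by 4. Of 5 granule and precursor genes in the table, Prtn3, a serine protease of granules, passed the filter and rose, at 0.168, 0.0902, 0 and 0 FPKM in CTR and 0.357, 0.422, 0.339 and 0.476 FPKM in Neu (log2 fold change 2.65 ± 0.92; adjusted p = 0.0227), with the groups apart. The others did not pass, among them Mpo at most 0.0385 FPKM, Elane at most 0.202 FPKM and Camp at most 0.0439 FPKM in any of the 8 libraries. Ngp, from the mature list, did not pass either and was at most 0.0652 FPKM. S100a8, one of the most abundant neutrophil transcripts, stood at 0, 0.332, 0.569 and 0.128 FPKM in CTR and 0.257, 0.16, 0.17 and 0.169 FPKM in Neu, so the groups overlapped. Padi4, Ly6g and S100a9 were not analysed here. The summed level of the mature neutrophil list was 138 to 146 FPKM in CTR and 229 to 253 FPKM in Neu, and Acod1, which macrophages also express, made up most of it. The members that rose besides Acod1 were Il1r2, Trem1, Mmp9, Lcn2 and Asprv1, and Asprv1 was at 0 in all 4 CTR libraries and at 0.294, 0.243, 0.253 and 0.12 FPKM in Neu. Their part in the results below was not tested. In RNA of whole cultures, fewer cells of a type and less RNA per cell cannot be told apart.

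Large changes were mostly increases. At 2-fold or more, 1086 genes rose and 408 fell. At 4-fold or more the numbers were 357 and 34, and at 16-fold or more 65 and 5. The balance differed with the level of the gene. Under a mean of 1 FPKM, 15.9% of the genes tested rose and 4.89% fell, and between 1 and 10 FPKM 30.0% rose and 32.2% fell. Between 10 and 100 FPKM 31.0% rose and 47.8% fell, and over 100 FPKM 40.5% rose and 35.3% fell. The plot of log2 fold change against level shows the tail of large increases.

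**Figure D1:**
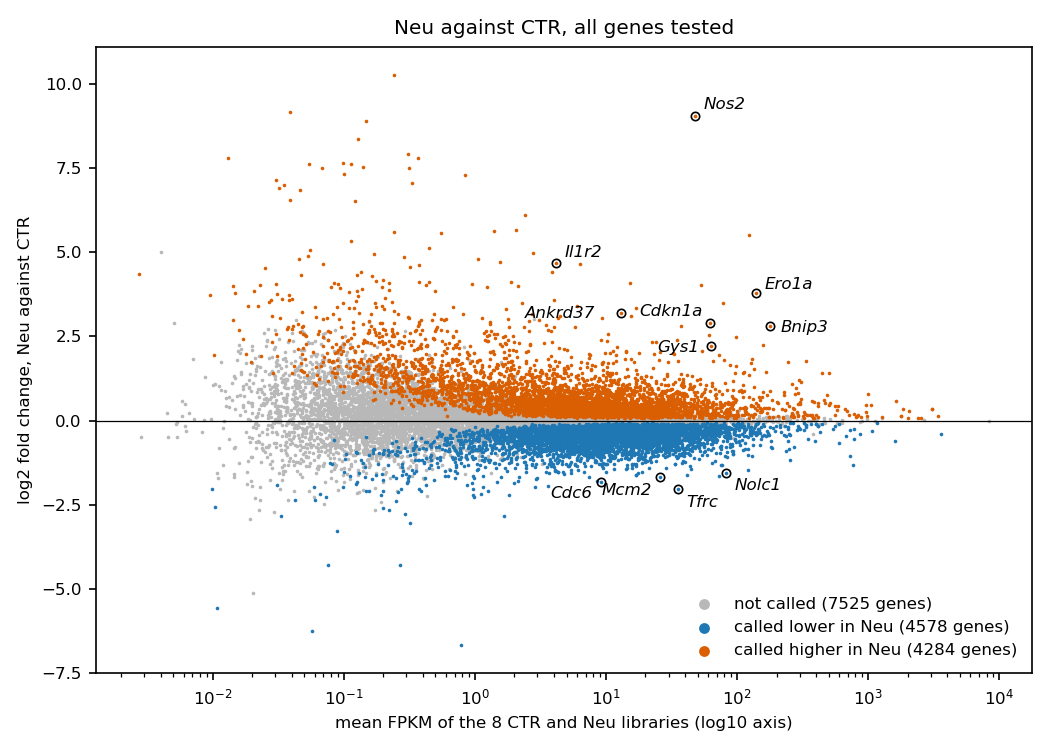
Each dot is 1 of the 16387 genes tested, with the mean FPKM of the 8 CTR and Neu libraries on a log10 horizontal axis and the log2 fold change, Neu against CTR, on the vertical axis. Orange marks the 4284 genes called higher, blue the 4578 called lower and grey the rest. The named genes were chosen after their values were seen and do not stand for all genes of either side. They include hypoxia and inflammatory genes on the upper side and replication, ribosome assembly and iron uptake genes on the lower side.

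Of 8 genes of oxygen sensing 4 rose and 2 fell. Egln1 (chr8:125635326-125676063 of GRCm39, minus strand), the main prolyl hydroxylase acting on hypoxia-inducible factor and itself a target of the factor, stood at 21.9, 21.1, 21.4 and 21.2 FPKM in CTR and 85.4, 85.2, 87.5 and 89.9 FPKM in Neu. All 4 Neu libraries were above every CTR library, and the difference was 4.23-fold (log2 fold change 2.08 ± 0.04, SE; adjusted p = 2.1e-16). Egln3, another inducible hydroxylase, rose 3.35-fold, from 4.46 ± 0.359 to 14.4 ± 1.03 FPKM (mean ± SD, n = 4, as for the other pairs of means below). Vhl, which encodes the protein that recognises the hydroxylated factor, rose 2.45-fold from 5.91 ± 0.452 to 13.9 ± 0.862 FPKM. Egln2, the hydroxylase that is not induced by low oxygen, fell 1.4-fold from 13.7 ± 0.449 to 9.45 ± 0.784 FPKM, and Hif1an, whose product hydroxylates another residue of the factor, fell from 8.96 ± 0.473 to 7.03 ± 0.0523 FPKM. The factor's own subunits moved little: Epas1 was not called (log2 fold change -0.07 ± 0.081), Hif1a was not called (0.04 ± 0.035), and Arnt, the partner subunit, rose 1.25-fold.

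Of 22 tested targets of hypoxia-inducible factor outside glycolysis, 20 rose and 0 fell, and their median log2 fold change was 2.17, against 26.1%, 27.9% and 0.020 over all genes tested. The 2 that were not called were Stc2 and Car9, the latter under 1 FPKM in both groups. The promoters of 3 members and of the glycolysis gene Pgk1 are printed here to show where the letters ACGTG lie, because the members of these lists moved together. They are the RefSeq promoters of build GRCm38.p6, from 250 bases before to 50 bases after the start of the gene, written 5′ to 3′ along the gene's strand in lower case, with ACGTG or its reverse complement CACGT in capitals.
Ankrd37, chr8:45999801-46000100, minus strand: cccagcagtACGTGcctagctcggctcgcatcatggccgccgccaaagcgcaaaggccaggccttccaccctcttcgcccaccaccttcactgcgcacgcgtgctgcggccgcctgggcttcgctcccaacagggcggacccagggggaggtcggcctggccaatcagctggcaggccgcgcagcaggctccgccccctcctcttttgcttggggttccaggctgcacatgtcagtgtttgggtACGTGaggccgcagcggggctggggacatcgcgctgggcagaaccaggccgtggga
Bnip3, chr7:138909457-138909756, minus strand: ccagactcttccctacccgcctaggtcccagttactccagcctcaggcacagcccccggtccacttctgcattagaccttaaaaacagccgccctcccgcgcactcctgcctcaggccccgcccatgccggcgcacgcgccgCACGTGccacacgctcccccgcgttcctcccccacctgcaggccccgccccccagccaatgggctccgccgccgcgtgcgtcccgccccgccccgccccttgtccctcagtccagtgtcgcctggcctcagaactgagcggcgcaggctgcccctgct
Ero1a, chr14:45318523-45318822, minus strand: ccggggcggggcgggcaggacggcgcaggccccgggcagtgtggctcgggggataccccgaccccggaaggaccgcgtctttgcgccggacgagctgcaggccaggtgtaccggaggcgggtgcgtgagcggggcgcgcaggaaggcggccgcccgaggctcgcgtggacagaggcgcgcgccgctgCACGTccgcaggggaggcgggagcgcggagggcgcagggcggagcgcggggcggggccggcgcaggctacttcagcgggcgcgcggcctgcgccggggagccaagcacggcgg
Pgk1, chrX:106186850-106187149, plus strand: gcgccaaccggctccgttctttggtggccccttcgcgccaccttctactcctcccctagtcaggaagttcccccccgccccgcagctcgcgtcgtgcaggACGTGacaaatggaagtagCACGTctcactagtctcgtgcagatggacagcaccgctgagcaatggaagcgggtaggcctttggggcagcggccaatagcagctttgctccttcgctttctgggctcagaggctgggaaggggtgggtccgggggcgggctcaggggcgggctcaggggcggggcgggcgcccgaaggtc
Searched on both strands, the letters were found in 62.5% of the 24 promoters listed for 18 of these targets and in 46.5% of the 43 promoters listed for 26 glycolysis genes. They were found in 19.6% of all 32851 promoters of the table and in 25.2% of the 13181 promoters of genes tested here. In the overlapping pair of the Bnip3 promoter the forward and reverse letters share bases. A match is a description of the sequence and not evidence of a bound site.

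Several of these targets act at mitochondria. Bnip3 (chr7:138492565-138511248 of GRCm39, minus strand), which tethers mitochondria to autophagosomes, stood at 47.5, 46.4, 44.4 and 46.8 FPKM in CTR and 321, 316, 320.1 and 295 FPKM in Neu. The Neu libraries lay far above all CTR libraries, 7.03-fold higher (log2 fold change 2.81 ± 0.045; adjusted p = 2.8e-17). Its relative Bnip3l rose 2.51-fold, from 26.4 ± 1.02 to 63.5 ± 1.45 FPKM. Fam162a, a mitochondrial protein induced by low oxygen, rose from 49.3 ± 5.45 to 145 ± 4.02 FPKM, and Higd1a, which binds respiratory complexes, from 4.36 ± 0.553 to 17 ± 1.45 FPKM. Pdk1, the kinase that shuts pyruvate out of the citric acid cycle, rose less, 1.56-fold, from 25.3 ± 0.885 to 38.1 ± 0.641 FPKM.

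Targets that act outside mitochondria rose as well. Ankrd37, a small ankyrin-repeat gene, stood at 3, 2.76, 2.42 and 2.47 FPKM in CTR and 23.4, 22.5, 24.6 and 23.2 FPKM in Neu, a 9.07-fold difference with no overlap (log2 fold change 3.18 ± 0.11; adjusted p = 2.6e-13). Hilpda, a lipid droplet protein that inhibits the lipase Pnpla2, stood at 22.2, 18.2, 17.3 and 16.3 FPKM in CTR and 101, 103, 106 and 106 FPKM in Neu. The groups were again apart, by 5.83-fold (log2 fold change 2.54 ± 0.073; adjusted p = 3.2e-14). Ddit4, an inhibitor of the growth kinase mTORC1, rose 6.95-fold, from 9.69 ± 0.329 to 64.9 ± 3.07 FPKM. Ero1a, the oxidase that recharges disulphide bond formation in the endoplasmic reticulum, was 13.8-fold higher. The lysyl hydroxylase Plod2, which modifies collagen, rose from 11.5 ± 1 to 58.2 ± 1.43 FPKM and P4ha1, a subunit of collagen prolyl hydroxylase, from 30.4 ± 0.528 to 48.8 ± 1.16 FPKM. Kdm3a, a histone demethylase, rose 2.31-fold, and Mxi1, a Myc antagonist, 1.76-fold.

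**Figure D2:**
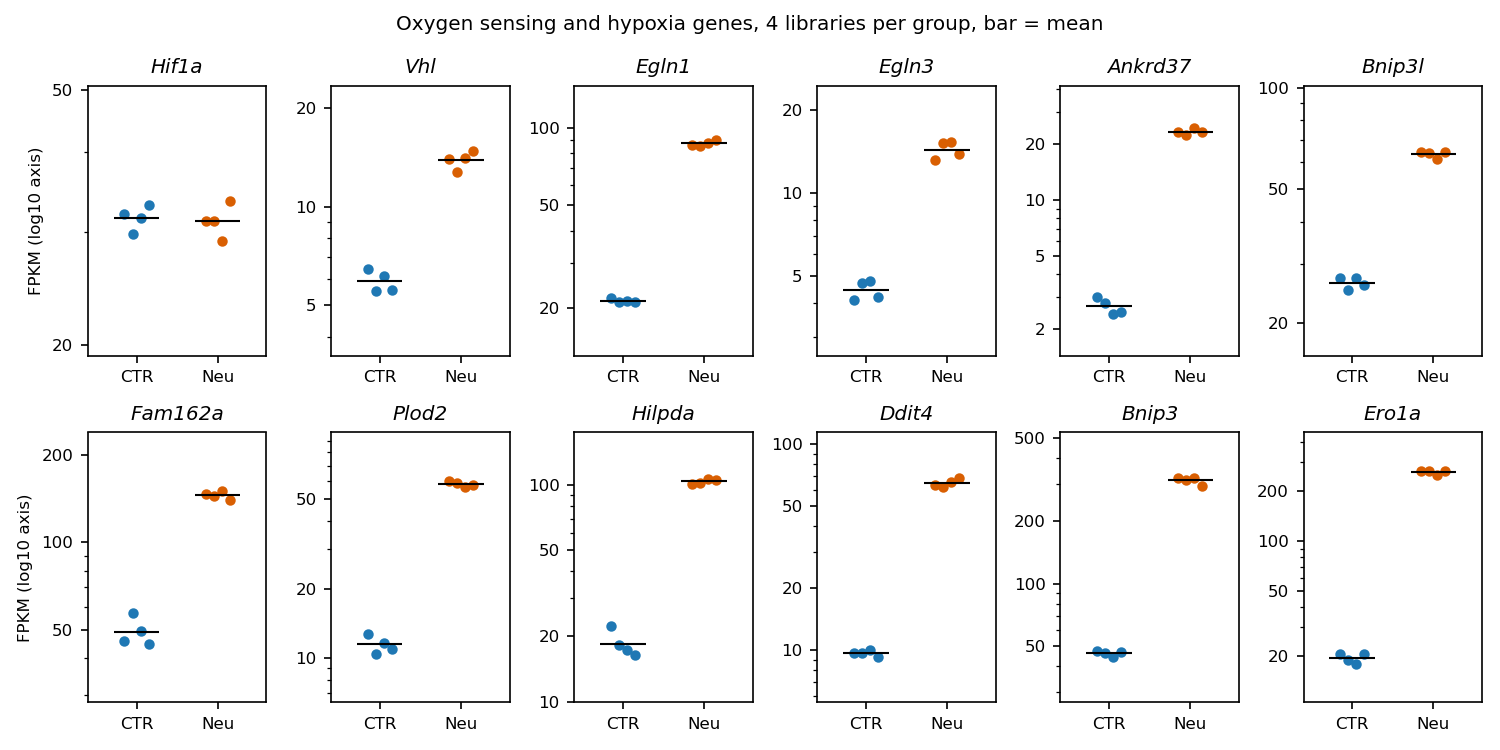
FPKM on a log10 axis for 12 genes of the oxygen sensing and hypoxia lists, with 1 point per library, 4 CTR libraries in blue and 4 Neu libraries in orange, and a short bar at each group's mean. In 11 of the 12 genes the 4 Neu points lie above all 4 CTR points, and Hif1a, whose points overlap, is the exception. The genes were chosen after their values were seen, so this count does not stand for the lists. Among the members not drawn, Egln2 and Hif1an fell without overlap, and Epas1 overlapped.

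Glucose handling followed the direction of the hypoxia targets. Of 27 tested genes of glycolysis and of glucose or lactate transport, 23 rose and 1 fell (median log2 fold change 0.60). Along the pathway, the glucose importer Slc2a1 rose 4.72-fold, and all 3 hexokinases, which trap glucose in the cell, rose: Hk1 2.58-fold, Hk2 2.03-fold and Hk3 1.52-fold. Hk1 stood at 23.6, 23.5, 23.9 and 23.8 FPKM in CTR and 58.1, 58.4, 56.7 and 62.2 FPKM in Neu, with no overlap. Of the phosphofructokinase subunits, which set the pace of glycolysis, Pfkp changed most, at 29.8, 30.7, 31.1 and 31.5 FPKM in CTR and 99.6, 99.6, 101 and 101 FPKM in Neu. The muscle form Pfkm rose 1.66-fold and the liver form Pfkl 1.46-fold. Among the lower steps the factors were Aldoa 1.39-fold, Tpi1 1.53-fold, Pgk1 1.71-fold, Eno1 1.28-fold, Pkm 1.38-fold and Ldha 1.13-fold. In FPKM, Pgk1 gained the most of the list, from 749.9 ± 21.2 to 1236 ± 7.94 FPKM. Gapdh rose from 31.2 ± 14.2 to 115 ± 12.8 FPKM, but many near-identical copies of this gene share its reads, so its level is uncertain.

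The lactate exporter Slc16a3 rose 1.42-fold, and Slc16a1, which moves lactate and pyruvate both ways, was the 1 member of the list that fell, at 59.4, 58.6, 58.4 and 59.7 FPKM in CTR and 32.2, 31.9, 32.1 and 33 FPKM in Neu. The groups did not overlap (log2 fold change -0.81 ± 0.022; adjusted p = 1.5e-14). Of genes that act on glycogen, 3 were chosen after their values were seen. The synthase Gys1 (chr7:45084268-45106043 of GRCm39, plus strand) stood at 22.4, 23.4, 23.9 and 23.4 FPKM in CTR and 99.9, 104, 99.8 and 112 FPKM in Neu, 4.64-fold higher without overlap (log2 fold change 2.21 ± 0.039; adjusted p = 7.8e-17). The branching enzyme Gbe1 rose 4.22-fold from 4.46 ± 0.357 to 18.1 ± 0.52 FPKM. Ppp1r3b, which targets a phosphatase to glycogen, rose 8.28-fold from 2.09 ± 0.216 to 16.7 ± 0.473 FPKM.

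The mitochondrial side of carbon metabolism moved the other way. Of 24 genes of pyruvate entry and the citric acid cycle, 18 fell and 2 rose (median log2 fold change -0.21). Idh3a, the catalytic subunit of the NAD-dependent isocitrate dehydrogenase, fell most, 1.79-fold, with values of 40.6, 40.2, 40.1 and 41.5 FPKM in CTR and 22.5, 21.7, 21.5 and 21.3 FPKM in Neu. Citrate synthase (Cs) fell from 67.3 ± 2.5 to 50.9 ± 0.937 FPKM. The 2 that rose were Pcx, the pyruvate carboxylase that refills the cycle, and Got1, a cytosolic aminotransferase. All 7 tested genes of the pentose phosphate pathway, which makes NADPH and ribose, fell (median -0.32), led by Rpia at 1.66-fold and Taldo1 at 1.6-fold. Of the nuclear genes for respiratory complex I and its assembly, 24 of 46 fell and 4 rose, and of those for complexes II to V 20 of 41 fell and 3 rose. The small counts of those that rose turned on single libraries: for complex I they were 2 without CTR library 4, Neu library 2 or Neu library 3 and 8 without Neu library 4, and for complexes II to V they were 5 without Neu library 4 and 1 without CTR library 4 or any 1 of the other Neu libraries. The assembly factor Ndufaf4 fell 2.95-fold, from 5.53 ± 0.577 to 1.8 ± 0.13 FPKM. Of 13 mitochondrially encoded messenger RNAs 3 were higher and 4 lower, or 2 lower under upper-quartile scaling. The shares of 23.1% and 30.8% were near the 26.1% and 27.9% over all genes tested.

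Genes of growth and division fell almost as whole lists. Of 39 genes that license origins or copy DNA, 38 fell and 0 rose (median log2 fold change -0.91). The remaining member, Rpa3, was not called (log2 fold change -0.07 ± 0.1). Orc2 (chr1:58501930-58544268 of GRCm39, minus strand), a subunit of the complex that marks origins, stood at 26.8, 26.2, 25.6 and 25 FPKM in CTR and 7.83, 8.75, 7.99 and 8.18 FPKM in Neu. Every Neu library was below every CTR library, 3.04-fold lower (log2 fold change -1.60 ± 0.038; adjusted p = 2.7e-15). The loading factor Cdc6 fell 3.52-fold, from 14.3 ± 0.279 to 3.91 ± 0.256 FPKM. Each of the 6 subunits of the replicative helicase fell, between 1.56-fold for Mcm7 and 3.17-fold for Mcm2. Mcm5 stood at 95.2, 94.6, 97.4 and 98 FPKM in CTR and 40.5, 39.7, 38.7 and 43 FPKM in Neu. Fen1, which trims lagging-strand fragments, fell 2.52-fold, and Pcna, the sliding clamp, fell less, 1.36-fold, from 164 ± 4.64 to 116 ± 2.42 FPKM.

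Promoters of replication genes often hold E2F sites, and 3 are printed to show the letters TTTGGCGC or TTTCCCGC, or their reverse complements, in capitals. Build, window and orientation are those given above.
Cdc6, chr11:98907901-98908200, plus strand: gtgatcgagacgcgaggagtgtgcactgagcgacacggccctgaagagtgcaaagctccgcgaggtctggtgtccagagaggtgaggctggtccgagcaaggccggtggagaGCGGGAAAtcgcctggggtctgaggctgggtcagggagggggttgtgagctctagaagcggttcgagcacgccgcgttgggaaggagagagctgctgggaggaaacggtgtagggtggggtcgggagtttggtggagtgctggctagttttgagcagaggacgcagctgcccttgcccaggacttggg
Mcm3, chr1:20820263-20820562, minus strand: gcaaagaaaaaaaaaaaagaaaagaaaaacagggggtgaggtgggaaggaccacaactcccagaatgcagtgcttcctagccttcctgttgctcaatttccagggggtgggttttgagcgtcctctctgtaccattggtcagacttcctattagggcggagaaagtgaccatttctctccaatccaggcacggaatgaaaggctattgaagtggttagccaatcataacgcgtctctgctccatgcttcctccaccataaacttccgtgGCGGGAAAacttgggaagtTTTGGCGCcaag
Mcm5, chr8:75109259-75109558, plus strand: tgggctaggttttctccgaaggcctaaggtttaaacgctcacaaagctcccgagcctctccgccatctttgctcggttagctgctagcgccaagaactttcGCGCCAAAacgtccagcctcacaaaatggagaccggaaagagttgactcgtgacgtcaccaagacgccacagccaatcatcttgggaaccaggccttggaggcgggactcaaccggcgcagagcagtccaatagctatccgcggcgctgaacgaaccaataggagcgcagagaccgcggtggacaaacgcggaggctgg
These letters were found in 29.7% of the 37 promoters listed for 31 of the replication genes, in 1.56% of all promoters of the table and in 2.81% of the promoters of genes tested. No promoter of the hypoxia and glycolysis lists held them, and the letters ACGTG were found in 29.7% of the replication promoters.

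Supply of DNA precursors fell with the replication genes. Of 25 nucleotide synthesis enzymes, 24 fell (median log2 fold change -0.83). Ctps1, which makes CTP, stood at 29.1, 27.5, 29.2 and 28.2 FPKM in CTR and 9.81, 9.51, 9.63 and 8.99 FPKM in Neu, 2.89-fold lower with no overlap (log2 fold change -1.53 ± 0.037; adjusted p = 3.7e-15). Rrm2, the limiting subunit of ribonucleotide reductase, fell from 42.6 ± 1.76 to 15.3 ± 0.359 FPKM. The exception was Impdh1, 1 of 2 enzymes that start guanine nucleotide synthesis, which rose 1.77-fold from 25.4 ± 0.301 to 43.3 ± 1.71 FPKM, while its relative Impdh2 fell 1.31-fold. Of 16 genes of serine synthesis and one-carbon transfer, 12 fell (median -0.83). The mitochondrial enzyme Mthfd2 fell 2.68-fold, from 21.2 ± 0.767 to 7.63 ± 0.133 FPKM, and Phgdh, the first enzyme of serine synthesis, from 324 ± 4.48 to 174 ± 13.6 FPKM. The 2 that rose, Aldh1l2 (6.81-fold) and Mthfd1l (1.57-fold), act at the release of one-carbon units as carbon dioxide or formate in mitochondria. Srm, which makes the polyamine spermidine, fell 2.79-fold, from 179.7 ± 3.76 to 62.1 ± 6.02 FPKM.

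Protein synthesis machinery fell at several layers. Of 40 genes of ribosome assembly and RNA polymerase I, 38 fell and 0 rose (median -0.66). Nolc1 (chr19:46064319-46073969 of GRCm39, plus strand), a nucleolar assembly factor, stood at 121, 128, 124 and 121 FPKM in CTR and 39.3, 40.7, 40.6 and 41 FPKM in Neu. The Neu libraries lay below all CTR libraries, by 2.94-fold (log2 fold change -1.56 ± 0.027; adjusted p = 7.8e-17). Bop1, needed for the large subunit, fell 2.73-fold from 65.9 ± 1.31 to 23.2 ± 1.3 FPKM. Npm1, the most abundant member, was not called (log2 fold change -0.06 ± 0.054). The proteins of the cytosolic ribosome itself did not follow the assembly factors: 41 of 85 rose and 10 fell (median 0.11), or 27 higher by limma on FPKM and 5 lower under upper-quartile scaling, with the reservation that their many processed copies can share reads. Mitochondrial ribosomal proteins fell in 62 of 77 cases (median -0.38), led by Mrpl12 at 2.03-fold.

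Of 20 cytosolic aminoacyl-tRNA synthetases 16 fell, most of all the alanine enzyme Aars1 (2.16-fold, from 25.6 ± 0.527 to 11.4 ± 0.725 FPKM). Among 20 amino acid transporters 14 fell, and Slc7a5, the importer of large neutral amino acids, stood at 52, 48.9, 53.8 and 51.3 FPKM in CTR and 24.3, 23.9, 23 and 26.5 FPKM in Neu. The groups were apart, by 2.03-fold (log2 fold change -1.02 ± 0.041; adjusted p = 1.7e-12). Translation factors fell in 24 and rose in 7 of 36 cases, or rose in 4 by limma on FPKM. The largest rise among them was that of Eif4ebp1, the repressor of cap-dependent translation that mTORC1 holds inactive, from 22.2 ± 2.55 to 50.2 ± 2.66 FPKM (2.34-fold). For traffic across the nuclear envelope, 34 of 35 nucleoporins and transport receptors were lower and 0 higher (median -0.59), among them Rcc1, the exchange factor of the Ran GTPase (2.46-fold). Of 36 splicing factors 29 fell, and Srsf4 fell most, 2.26-fold. Proteasome subunits fell in 26 of 37 cases and heat shock proteins in 17 of 26, with medians of -0.21 and -0.29.

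**Figure D3:**
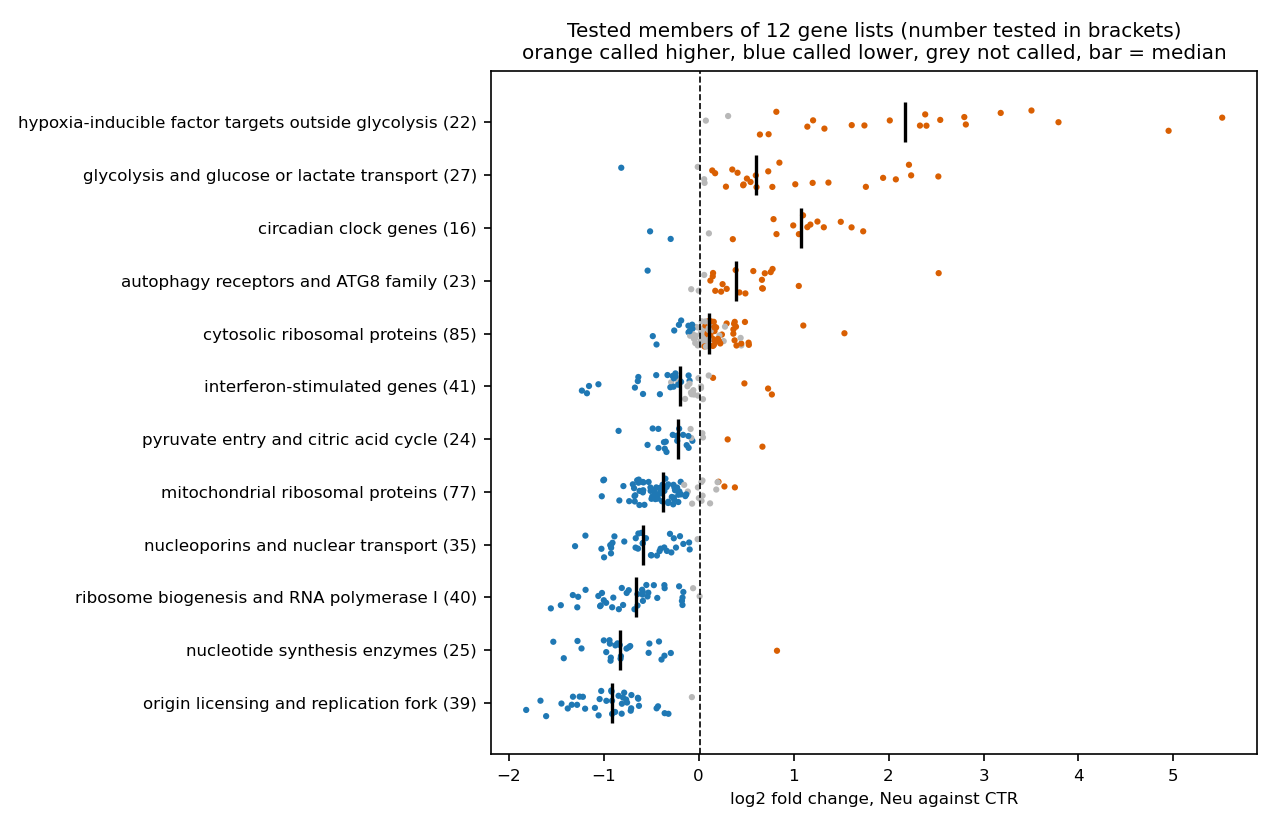
Log2 fold change, Neu against CTR, of every tested member of 12 gene lists, 1 dot per gene, with a vertical bar at each list's median and a dashed line at the median over all genes tested. Nearly all dots of the replication, nucleotide and ribosome assembly lists lie left of 0, those of the hypoxia list lie right of it, and the cytosolic ribosomal proteins straddle it.

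Cell cycle regulators moved in both directions. Of 26 genes that govern the entry into S phase, 14 fell and 11 rose. Ccne1, the cyclin that starts S phase, fell 2.64-fold from 31.1 ± 0.647 to 11.3 ± 0.589 FPKM, the phosphatase Cdc25a fell 2.9-fold, and the activator E2f1 fell 1.58-fold. Cdkn1a (chr17:29309950-29319701 of GRCm39, plus strand), the inhibitor p21 of cyclin-dependent kinases, stood at 15.1, 16.1, 14.2 and 14.8 FPKM in CTR and 107, 109.5, 107 and 112 FPKM in Neu. The groups were far apart, by 7.5-fold (log2 fold change 2.91 ± 0.046; adjusted p = 2.6e-17). The related inhibitor Cdkn1b rose 2.83-fold, from 4.13 ± 0.252 to 11.2 ± 0.306 FPKM, whereas Cdkn2c, an inhibitor of another class, fell 1.39-fold. Mxd1, a repressor that competes with Myc for its partner Max, rose 6.84-fold from 1.06 ± 0.222 to 7 ± 0.0918 FPKM. Myc itself rose 2.49-fold but stayed under 1 FPKM, from 0.318 ± 0.0432 to 0.773 ± 0.0586 FPKM. Of 30 mitotic genes 25 fell and 2 rose, or 1 rose without CTR library 3 or Neu library 1, with a median of -0.36. Ccnb1, the mitotic cyclin, fell 1.59-fold, from 68.4 ± 1.79 to 41.3 ± 1.17 FPKM.

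The list of p53, the best known activator of Cdkn1a, and its targets was divided. Of 22 tested genes, with Cdkn1a and Trp53 counted among them, 12 rose and 8 fell (median 0.27). Trp53 itself fell from 66.2 ± 3.13 to 48.9 ± 0.803 FPKM. Ccng2, a cyclin that slows the cycle and is also driven by Foxo factors, rose 5.12-fold, from 3.42 ± 0.159 to 16.9 ± 0.623 FPKM, and Sesn2, a stress inhibitor of mTORC1, 2.91-fold. Aen, a nuclease induced by p53, fell 3.89-fold from 4.61 ± 0.359 to 1.14 ± 0.0493 FPKM, and Tigar, which diverts sugar into the pentose phosphate pathway, fell 2.45-fold. Among 19 members of the BCL2 family 10 rose and 3 fell. The survival gene Mcl1 rose from 173 ± 4.75 to 282 ± 9.17 FPKM, while of the killers Bid fell 1.68-fold, Bax fell 1.31-fold and Bmf rose 2.4-fold.

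Genes that respond to growth factor or glucose signals, not all in the same direction, rose in 13 of 17 cases and fell in 3 (median 0.63). Foxo3, a factor that insulin signalling keeps out of the nucleus, rose 1.73-fold, Cited2, which limits hypoxia-inducible factor by competing for its coactivator, rose 2.37-fold, and Txnip, a brake on glucose import, rose from 115 ± 2.05 to 199.6 ± 5.43 FPKM. Autophagy genes rose in 19 of 23 cases and fell in 1 (median 0.39), among them the cargo receptor Sqstm1, from 116 ± 0.485 to 180.1 ± 4.77 FPKM. Circadian clock genes rose in 13 of 16 cases, with a median of 1.08. Per1 stood at 8.89, 8.24, 9.36 and 8.89 FPKM in CTR and 17.2, 17, 16.7 and 19.9 FPKM in Neu, and its groups did not overlap (2.08-fold higher; adjusted p = 1.0e-11). Dbp, an output gene of the clock, rose 2.82-fold, whereas Nr1d2, a repressor of the clock, fell 1.42-fold. The 2 list members Bhlhe40 and Bhlhe41 are also induced by low oxygen.

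Of 10 genes of arginine and itaconate metabolism 5 rose and 4 fell. Nos2 (chr11:78811613-78851080 of GRCm39, plus strand), which makes nitric oxide from arginine, had a log2 fold change of 9.06 ± 0.14, from 0.111, 0.243, 0.196 and 0.184 FPKM in CTR to 92.3, 94.3, 90.9 and 105 FPKM in Neu. Gch1, which starts the synthesis of the cofactor that Nos2 needs, rose 1.87-fold, from 4.33 ± 0.266 to 7.81 ± 0.552 FPKM, and Asl, which helps to remake arginine, rose 1.51-fold. Slc7a2, an arginine importer, fell from 4.87 ± 0.158 to 3.48 ± 0.137 FPKM. Arg1, which competes for arginine, was at 0.0394 ± 0.0347 FPKM in CTR and 0.273 ± 0.0604 FPKM in Neu. Of 20 NF-kappaB subunits and feedback inhibitors 12 rose and 4 fell. The inhibitors Tnfaip3 (5.05-fold) and Birc3 (2.02-fold), a ubiquitin ligase of the pathway, rose, and Nfkbid fell from 13.9 ± 0.663 to 4.99 ± 0.406 FPKM (2.68-fold). The subunits Rela and Rel were not called (log2 fold changes 0.08 ± 0.058 and -0.06 ± 0.062), and Nfkb2 rose 1.5-fold.

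Of 14 tested chemokine ligands 5 rose and 4 fell (35.7% and 28.6%, against 26.1% and 27.9% over all genes tested). Ccl7 (chr11:81936538-81938351 of GRCm39, plus strand), a monocyte attractant, stood at 6.16, 5.79, 6.02 and 5.02 FPKM in CTR and 1.39, 1.74, 0.982 and 1.58 FPKM in Neu, 3.87-fold lower with no overlap (log2 fold change -1.95 ± 0.27; adjusted p = 8.3e-06). Its neighbour in function Ccl2 fell 3.13-fold. In contrast Ccl3 and Ccl4, ligands of CC chemokine receptors, rose 2.66-fold and 2.67-fold. Ccl6 rose from 17.3 ± 1.15 to 32.3 ± 0.917 FPKM, and Cxcl10, an interferon-induced attractant of T cells, fell from 9.1 ± 0.658 to 6.6 ± 0.396 FPKM. Of 11 chemotactic receptors 5 rose and 1 fell, or 2 fell with the 8 libraries alone or with counts divided by 4. Ccr1 and Cxcr4 rose, Ccr1 at 0.233, 0.287, 0.286 and 0.195 FPKM in CTR and 1.91, 2.02, 2.37 and 1.74 FPKM in Neu (8.22-fold) and Cxcr4 from 5.71 ± 0.501 to 9.49 ± 0.416 FPKM. Cx3cr1, the receptor for the neuronal ligand fractalkine, was 7.9-fold higher. Cxcl1, Cxcl12 and Cx3cl1 were under the filter.

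Cytokine genes were uneven. Il1b stood at 1.01, 0.657, 0.569 and 0.579 FPKM in CTR and 1.04, 1.38, 0.94 and 0.387 FPKM in Neu, with overlapping groups and no call (log2 fold change 0.45 ± 0.48), and Il6 was not called at 0.151 ± 0.0645 FPKM in CTR and 0.101 ± 0.0701 FPKM in Neu. Tnf rose 1.45-fold, Il1rn, the antagonist of interleukin-1, rose 1.74-fold from 5.38 ± 0.293 to 9.03 ± 0.345 FPKM, and Il15 rose 1.83-fold. Lif, a cytokine of the interleukin-6 family, stood at 0.548, 0.416, 0.718 and 0.646 FPKM in CTR and 2.31, 2.87, 2.98 and 2.99 FPKM in Neu, 4.96-fold higher without overlap (log2 fold change 2.31 ± 0.18; adjusted p = 1.1e-08). Among receptors, Il1r2, a decoy that binds interleukin-1 without signalling, stood at 0.217, 0.356, 0.361 and 0.345 FPKM in CTR and 8.28, 8.16, 7.59 and 8.09 FPKM in Neu (25.6-fold; adjusted p = 4.1e-11). It is also on the list of mature neutrophil markers given above. Il10ra, through which interleukin-10 restrains macrophages, rose 3.28-fold from 3.42 ± 0.419 to 10.8 ± 0.548 FPKM, and Csf2rb, the shared receptor subunit for GM-CSF and interleukin-3, rose 1.91-fold. Over both lists 9 of 18 ligands and 12 of 27 receptors and inhibitors rose, while 1 and 5 fell. Without CTR library 2, Neu library 2 or Neu library 4 the number of ligands that fell was 2, and the number of receptors that fell was 2 under upper-quartile scaling and 8 by limma on FPKM.

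In the tumour necrosis factor families 11 of 18 rose and 4 fell. Tnfrsf9, a costimulatory receptor, rose 16.3-fold and its ligand Tnfsf9 2.1-fold, from 28.8 ± 1.53 to 58.3 ± 3.36 FPKM. Tnfrsf21, known as death receptor 6, fell 2.55-fold from 5.72 ± 0.329 to 2.16 ± 0.173 FPKM. Of 26 early-response factors 16 rose and 5 fell (median 0.71). Maff, a small Maf protein, stood at 5.01, 5.61, 4.45 and 5.09 FPKM in CTR and 15.5, 15.7, 15.6 and 16.6 FPKM in Neu (3.26-fold, no overlap), Atf3 rose 2.15-fold from 24.7 ± 1.18 to 51.1 ± 1.22 FPKM, and Klf2, a factor that quiets macrophages and endothelium, rose 2.49-fold. Fos fell 2.04-fold, from 5.82 ± 0.624 to 2.74 ± 0.348 FPKM. Phosphatases and Sprouty proteins that switch off MAP kinases rose in 13 of 17 cases and fell in 2 (median 0.47), with Dusp1 from 6.68 ± 0.431 to 17.2 ± 1.96 FPKM. Of 13 genes of prostaglandin and leukotriene synthesis 6 rose and 4 fell. Ptgs2 rose 10.2-fold and the inducible E synthase Ptges 1.86-fold, while the other synthases Ptges2 and Ptges3 fell 1.88-fold and 1.65-fold.

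**Figure D4:**
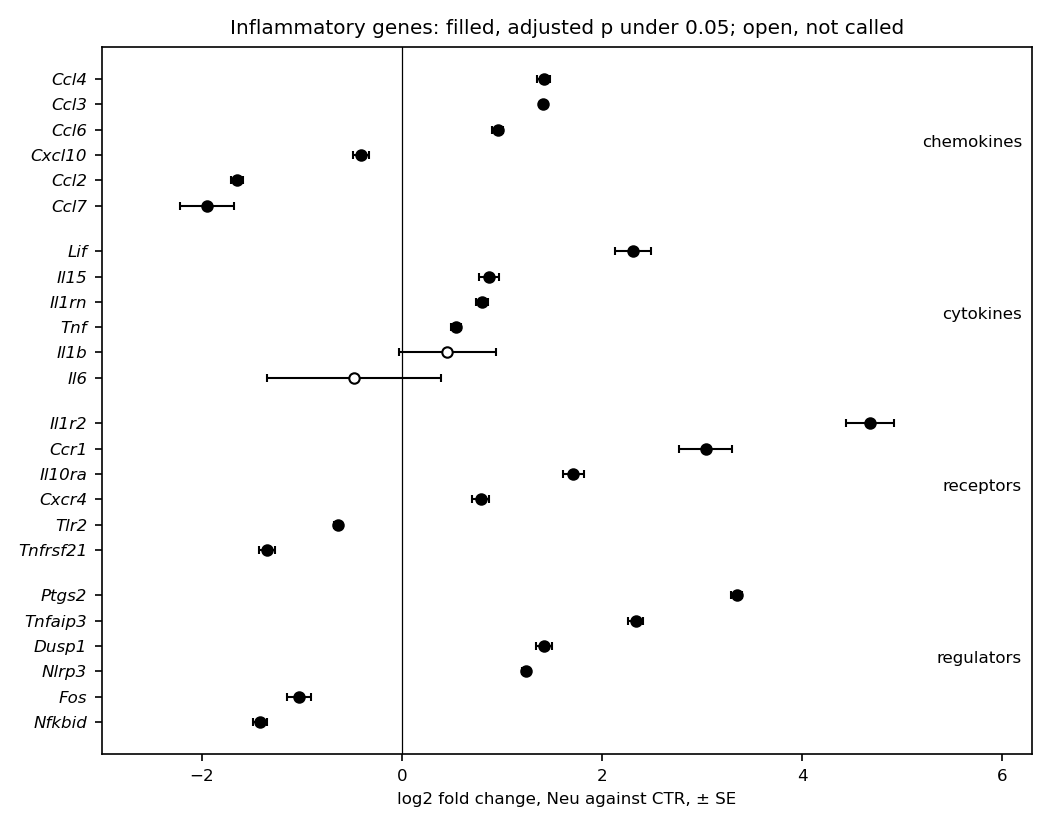
Log2 fold change, Neu against CTR, with its standard error, for 24 ligands, receptors and regulators of inflammation named in the text, ordered by size within each class, with filled points for genes called at an adjusted p under 0.05 and open points for the others. Ccl2 and Ccl7 lie left of 0 while Ccl3 and Ccl4 lie right of it, and Il1b and Il6 are open points.

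Plau, which turns plasminogen into plasmin, stood at 130.3, 131, 132 and 123 FPKM in CTR and 224, 226, 225 and 229 FPKM in Neu, 1.82-fold higher without overlap, and 15 of 20 members of the list of plasminogen activation and matrix proteins rose while 2 fell (median 0.52). Adam8, a sheddase of leukocytes, rose from 71.6 ± 1.7 to 177 ± 8.54 FPKM, and Spp1, the adhesive protein osteopontin, from 1324 ± 45.2 to 1909 ± 42.1 FPKM. Mmp12, the macrophage elastase, was low but rose 5.93-fold, from 0.437 ± 0.0756 to 2.51 ± 0.169 FPKM, and Mmp9, which is also a neutrophil marker, rose from 0.548 ± 0.185 to 1.46 ± 0.0717 FPKM. Of 16 angiogenic ligands and receptors 8 rose and 3 fell, or 5 rose by limma on FPKM. Vegfa rose 3.97-fold and its receptor Flt1 2.11-fold, from 11.2 ± 0.38 to 22.7 ± 0.22 FPKM. Vegfb, which low oxygen does not induce, fell from 36.4 ± 2 to 25 ± 1.8 FPKM, and the co-receptors Nrp1 and Nrp2 fell 1.38-fold and 1.4-fold. Pdgfb, a growth factor for pericytes, rose from 11.6 ± 0.332 to 20.9 ± 1.53 FPKM.

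Of 31 integrins and adhesion proteins 21 rose and 5 fell (median 0.38). Itga5, which pairs with Itgb1 to bind fibronectin, rose 1.64-fold, and Vcl, the focal adhesion protein vinculin, rose from 6.84 ± 0.343 to 12.4 ± 0.372 FPKM. Bcar1, an adhesion adaptor, had the largest change of the list, 21.4-fold. Itgal and Itga4, which bind endothelial ligands, fell 1.69-fold and 1.61-fold. Of 21 annexins, galectins and S100 proteins 17 rose and 0 fell (median 0.48), or 1 fell without Neu library 4. Anxa2, which binds plasminogen and its activator at the cell surface, stood at 57.9, 60.6, 59.4 and 56.6 FPKM in CTR and 198, 204, 200.3 and 199 FPKM in Neu, 3.55-fold higher with no overlap (log2 fold change 1.83 ± 0.029; adjusted p = 2.6e-17). Its partner S100a10 rose 1.25-fold.

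Macrophage identity genes changed in part. Of 15 lineage factors 5 rose and 6 fell. Cebpa, a factor of myeloid commitment, stood at 9.86, 10.6, 10 and 9.38 FPKM in CTR and 3.86, 3.92, 4.49 and 4.92 FPKM in Neu, 2.23-fold lower (log2 fold change -1.16 ± 0.085; adjusted p = 3.5e-09), with the groups apart. Spi1, the master factor of the lineage, fell 1.33-fold from 96.7 ± 1.98 to 69.8 ± 3.01 FPKM, and Irf8, its partner, rose 1.46-fold. Among 23 surface receptors 11 rose and 3 fell: Lilrb4a, an inhibitory receptor, rose from 92.1 ± 0.896 to 176 ± 5.88 FPKM, Cd47, the signal that protects cells from being eaten, rose 2.34-fold, and Trem2, a lipid sensor of microglia, fell from 40.7 ± 1.06 to 29.9 ± 2.11 FPKM. The signature of microglia in disease, 24 genes, had 9 up and 7 down, or 37.5% and 29.2%, against 26.1% and 27.9% over all genes tested. Its median log2 fold change of 0.015 was near the 0.020 over all genes tested. Of its members the lectin receptor Clec7a rose 1.51-fold and the fatty acid binding protein Fabp5 fell 1.53-fold, and Gpnmb was not called at 989.7 ± 11.8 and 975 ± 25.1 FPKM.

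Recognition receptors did not move as a block. Of 29 Toll-like receptor and inflammasome genes 12 rose and 8 fell (41.4% and 27.6%, against 26.1% and 27.9% over all genes tested). Nlrp3, the sensor that assembles the inflammasome, stood at 17.4, 16.5, 17.7 and 16.5 FPKM in CTR and 37.1, 37.8, 38.7 and 40.8 FPKM in Neu, 2.36-fold higher without overlap (log2 fold change 1.24 ± 0.037; adjusted p = 5.6e-14), whereas its effector protease gene Casp1 fell from 7.64 ± 0.417 to 5.79 ± 0.297 FPKM. Tlr2, the receptor for bacterial lipoproteins, fell 1.56-fold, the adaptor Myd88 fell 1.51-fold and the adaptor Ticam1 rose 2.23-fold. Fc, lectin and scavenger receptors rose in 12 and fell in 7 of 25 cases (48% and 28%). Cd14 rose from 96.2 ± 1.67 to 149.9 ± 11.3 FPKM and Fcgr1, the high-affinity receptor for IgG, fell from 45.3 ± 1.3 to 25.4 ± 0.709 FPKM. Complement genes rose in 5 and fell in 5 of 18 cases, or fell in 8 with the 8 libraries alone and in 3 under the filter of a mean of 1 FPKM. The share of 27.8% in each direction was near the 26.1% and 27.9% over all genes tested. The C1q chains C1qb and C1qc fell 2.6-fold and 3.21-fold from low levels, with C1qc going from 3.35 ± 0.175 to 0.999 ± 0.164 FPKM. Antigen presentation and costimulation genes rose in 15 of 24 cases and fell in 1, or in 2 without Neu library 4 and in 4 by limma on FPKM. Vsir, an inhibitory ligand of T cells, rose 2.58-fold from 21.5 ± 1.07 to 53.5 ± 3.21 FPKM, and Cd274, another one, rose 1.68-fold.

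Interferon-stimulated genes leaned downward, with 21 of 41 lower and 4 higher (median -0.20). Ifit1, a sensor of foreign RNA ends, stood at 10.5, 10.8, 10.1 and 10.3 FPKM in CTR and 4.37, 5.29, 4.89 and 4.75 FPKM in Neu, 2.08-fold lower with no overlap (log2 fold change -1.05 ± 0.069; adjusted p = 8.6e-10). Isg15, a ubiquitin-like protein, fell from 97.6 ± 9.45 to 79.3 ± 3.83 FPKM, and Usp18, which removes it from other proteins, from 58.6 ± 2.62 to 44.9 ± 1.07 FPKM. Dhx58, a regulator of RNA sensing, was among the 4 that rose (1.66-fold).

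Of 29 lipid handling genes 11 rose and 8 fell (37.9% and 27.6%, against 26.1% and 27.9% over all genes tested). Nr1h3, the liver X receptor of macrophages, fell from 11.8 ± 0.51 to 5.64 ± 0.774 FPKM (2-fold), and Fasn, which makes fatty acids, fell 1.8-fold, whereas Scd2, which desaturates them, rose 3.25-fold. Cholesterol genes rose in 14 and fell in 5 of 24 cases, and Insig2, which holds the sterol sensor in the endoplasmic reticulum, stood at 10.9, 11.7, 11.9 and 13.6 FPKM in CTR and 26.5, 26.9, 25.4 and 28.2 FPKM in Neu (2.31-fold higher, no overlap). Of 17 iron genes 6 rose and 6 fell (35.3% in each direction), or 1 rose by limma on FPKM. Tfrc, the receptor for transferrin-bound iron, fell from 57.4 ± 2.3 to 13.6 ± 0.312 FPKM (4.05-fold), and the iron exporter Slc40a1 fell 2-fold. Lcn2, which binds bacterial iron carriers and is also a neutrophil marker, rose 4.2-fold, from 0.223 ± 0.0644 to 0.95 ± 0.0621 FPKM. Of 27 NRF2 and antioxidant genes 14 fell and 7 rose. Gclc and Gclm, the 2 subunits of the enzyme that starts glutathione synthesis, fell 2.1-fold and 2.2-fold. Gclm stood at 20.6, 19.3, 21.2 and 21.3 FPKM in CTR and 8.81, 9, 9.22 and 8.93 FPKM in Neu, with the groups apart. Hmox1, the haem-degrading enzyme, rose 3.33-fold. Subunits of the NADPH oxidase, which makes superoxide, rose in 6 of 8 cases and fell in 1, or in 2 without Neu library 4.

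Chaperone and unfolded protein response genes fell in 12 and rose in 7 of 23 cases, and Hspa5, the main chaperone, fell from 279 ± 3.44 to 193 ± 3.84 FPKM. P4hb, a disulphide isomerase that is also a subunit of collagen prolyl hydroxylase, was the exception in size, at 185, 185, 192 and 180.4 FPKM in CTR and 409, 419, 411 and 395 FPKM in Neu (2.29-fold, no overlap). Of 20 genes of the integrated stress response 8 rose and 3 fell (median 0.06), or 6 fell by limma on FPKM. Atf4 fell from 79.7 ± 1.66 to 51.5 ± 2.78 FPKM and Asns, its target, fell 1.89-fold, while Trib3, another target, rose 2.64-fold. Receptors and enzymes for ATP and adenosine fell in 7 and rose in 2 of 15 cases, among them P2rx7, the ATP-gated channel upstream of inflammasome activation, from 10.7 ± 0.243 to 6.95 ± 0.476 FPKM. Entpd1, which removes extracellular ATP, rose 1.47-fold. Of 17 noncoding RNAs 5 rose and 6 fell (29.4% and 35.3%, against 26.1% and 27.9% over all genes tested). Mir17hg, the host transcript of a microRNA cluster that promotes proliferation, fell 2.35-fold from 5.39 ± 0.257 to 2.21 ± 0.203 FPKM, and Malat1 rose from 20.7 ± 1.39 to 36.2 ± 3.43 FPKM.

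The plot of list shares sets 30 of the lists beside one another. As a further background, of 311 numbered zinc finger genes 18.6% rose and 28.6% fell, and of 47 Rab GTPases 38.3% rose and 29.8% fell. In the hypoxia list 90.9% rose, and in the replication list 97.4% fell. Both lists were chosen with earlier results of these data known, so the distance from the background is in part built in.

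**Figure D5:**
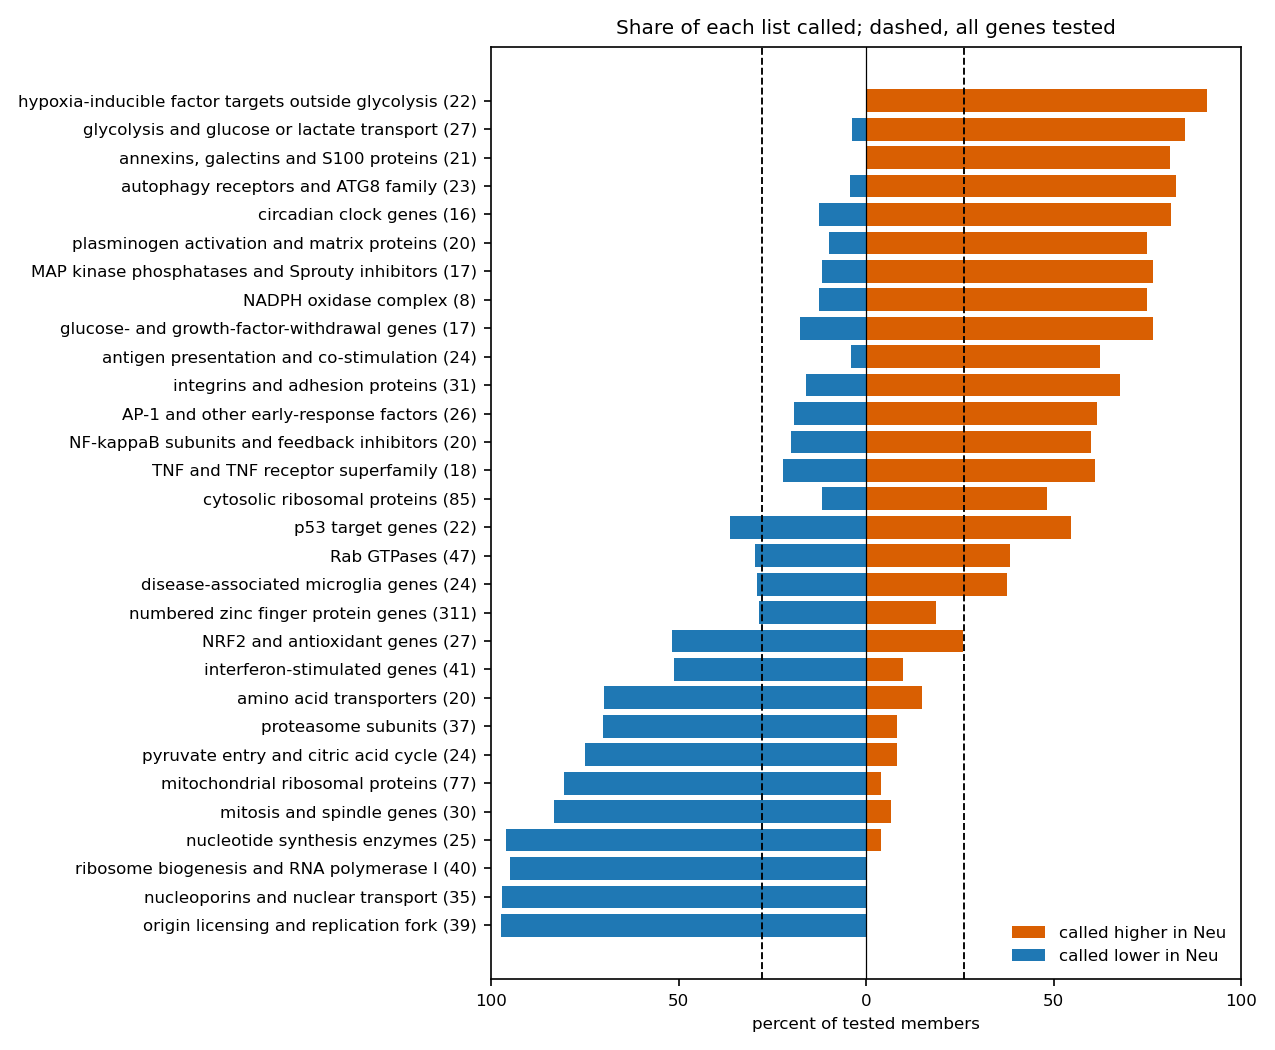
Share of tested members called higher (orange, to the right) and called lower (blue, to the left) in 30 gene lists, in percent, with dashed lines at the shares over all genes tested, 26.1% higher and 27.9% lower. Lists are ordered by the difference of both shares, from the hypoxia targets at the top to the replication, nucleoporin and ribosome assembly lists at the bottom. The lists drawn are a selection from 64, not counting lists of cell type markers. The pentose phosphate list, of which all 7 tested genes fell, is not drawn.

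For 8 of these genes, picked with the results of these data known, the level with PMA-stimulated neutrophils was set beside that in Neu. They do not stand for the other genes named. Eif4ebp1 and Gch1, for example, were not called between the 2 co-cultures (adjusted p = 0.48 and 0.43). In Neu+NETS Bnip3 stood at 74.1, 68.6, 71.1 and 65.3 FPKM, 4.82-fold lower than in Neu in the direct contrast of the 2 co-cultures (log2 difference -2.27 ± 0.044, SE; adjusted p = 9.0e-17). Cdkn1a stood at 24.2 ± 1.36 FPKM, 4.83-fold lower (adjusted p = 1.1e-16), and Gys1 at 23 ± 1.12 FPKM, 4.86-fold lower (adjusted p = 2.2e-17). These 3 genes were thus higher with neutrophils that had no PMA than with PMA-stimulated ones. Among genes that fell in Neu, Orc2 stood at 40.8 ± 0.432 FPKM in Neu+NETS, 4.63-fold higher than in Neu (adjusted p = 2.3e-17), and Nolc1 at 148 ± 2.33 FPKM, 3.39-fold higher (adjusted p = 7.9e-18). Ccl7 differed from that pattern, since it was lower still in Neu+NETS at 0.445 ± 0.201 FPKM (log2 difference -1.78 ± 0.29; adjusted p = 4.6e-05). Aldh1l2 kept part of its level, at 5.53 ± 0.268 FPKM (1.96-fold lower than in Neu; adjusted p = 2.3e-11), and so did Egln3 at 9.36 ± 0.565 FPKM (1.66-fold lower; adjusted p = 9.7e-08).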

How the data were processed

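Estimated counts and FPKM of 12 libraries were taken as deposited by the authors in 1 gene table. Per the submitters' processing notes, HISAT2 2.0.4, StringTie 1.3.4d, edgeR and the build GRCm39 were used. The sources used here give no annotation release, strand setting or filter, so genes with copies, overlapping genes and antisense partners may share reads. Among the deposited counts from 2 to 41, 33.0% were multiples of 4, against 25% if spread evenly, so 4 units may stand for 1 fragment, and a fit on counts divided by 4 was an alternative.

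Counts of all 12 libraries were fitted with edgeR 4.0.16 (R 4.3.3) after its filter on low counts, with TMM scaling and the quasi-likelihood test, two-sided, with Benjamini-Hochberg adjustment over the 16387 genes tested and a threshold of 0.05. The fit was tested on simulated data in which few genes changed, as many up as down. A change as broad as the 54.1% called here was not simulated, so the scaling was not tried under it. Fold changes come from this fit and levels from FPKM as deposited, so ratios of FPKM and the folds can differ. The groups were taken from the labels. Alternatives used DESeq2 1.42.0, limma 3.58.1 on log2(FPKM + 1) or log2(FPKM + 0.1), other scalings and filters, a replicate block and the leaving out of each library.

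The members and the 73 gene lists were chosen with earlier results of these data known. A rule gave 536 genes: those with the largest changes, genes marked in the lists, and each list's largest called change in each direction. The text names 205 genes, a part of these and 35 further list or marker genes chosen after their values were seen. The genes drawn in the plots were also chosen after their values were seen. Rows that share 1 symbol (80 symbols) were kept apart in the fit, and the lists and named genes used the row with the highest mean FPKM. Promoters come from RefSeq, build GRCm38.p6, matched by symbol, and no coordinate was carried between builds.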

Additional observations from a re-analysis of the deposited data

Results flagged for a closer look

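Within groups of 4 libraries, a value is given here where its distance to the nearest other library exceeded Dixon's 95% limit as a share of the group's range. Over the genes named in the text this held in 29 of 410 groups, and chance gives it in about 1 in 20 groups. The library standing off was Neu library 4 in 15 of the 29 cases. It was the highest of its group each time. Its values were 25.1 FPKM for Bop1 (others 22.3 to 22.7), 80.5 FPKM for Csf2rb (others 70.5 to 71.2), 10.6 FPKM for Egln2 (others 8.97 to 9.23), 25.5 FPKM for Fen1 (others 23.3 to 23.6) and 8.63 FPKM for Gch1 (others 7.42 to 7.63). They were also 235 FPKM for Hk3 (others 215 to 218), 17.4 FPKM for Irf8 (others 15.9 to 16.2), 16.6 FPKM for Maff (others 15.5 to 15.7), 19.9 FPKM for Per1 (others 16.7 to 17.2) and 38.2 FPKM for Pfkm (others 36.7 to 36.8). The remaining values of that library were 1275 FPKM for Pkm (others 1174 to 1189), 274 FPKM for Slc2a1 (others 250.3 to 251), 63.3 FPKM for Tnfsf9 (others 56.1 to 57.3), 33.1 FPKM for Trem2 (others 28.6 to 29.2) and 208 FPKM for Txnip (others 197 to 197). Neu library 3 stood off at 61.3 FPKM for Bnip3l (others 64.2 to 64.3) and 249.99 FPKM for Ero1a (others 264 to 265). Neu library 2 stood off at 2.92 FPKM for Bmf (others 3.27 to 3.32). Neu library 1 stood off at 41.3 FPKM for Malat1 (others 34.1 to 35.2), 16 FPKM for Ppp1r3b (others 16.8 to 17) and 0.257 FPKM for S100a8 (others 0.16 to 0.17). CTR library 4 stood off at 26.5 FPKM for Atf3 (others 24 to 24.4), 10.3 FPKM for Entpd1 (others 9.52 to 9.62) and 123 FPKM for Plau (others 130.3 to 132). CTR library 2 stood off at 62 FPKM for Ccl4 (others 50.6 to 52.2), 825 FPKM for Ldha (others 800.0 to 803) and 76 FPKM for Slc16a3 (others 71 to 71.5). CTR library 1 stood off at 604 FPKM for Eno1 (others 588 to 590.1) and 0.217 FPKM for Il1r2 (others 0.345 to 0.361). S100a8 was under the filter and was not tested, and each of the other genes kept its direction and its side of the threshold when the library that stood off was left out.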

How the results depend on the processing

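Under the alternatives, the number of genes called higher ran from 3205 (limma on log2(FPKM + 0.1)) to 4731 (upper-quartile scaling) and the number called lower from 4053 (mean FPKM of at least 1) to 5070 (limma on log2(FPKM + 0.1)), and no gene called in the comparison was called in the opposite direction by any of them. DESeq2 called 4476 higher and 4562 lower. Of the genes called, 48.3% were higher, and 38.7% to 53.4% under the alternatives. By limma the median over all genes moved by -0.117 (pseudocount 0.1) and -0.101 (pseudocount 1), and the cause was not tested. Leaving out 1 library gave 4014 to 4164 higher and 4337 to 4511 lower. With a replicate block the numbers were 4270 and 4554. Same-numbered CTR and Neu libraries did not deviate together (r -0.017 to 0.011 over genes), and 0 of 4 Neu libraries correlated best with their own number. For the genes whose levels in Neu+NETS are given, the difference between the co-cultures was called for 8 of 8 in all settings run. These genes and settings were chosen after seeing the data, so the 8 of 8 is no test of other genes.

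Of the genes named, those that changed sign were called neither in the comparison nor where the sign changed: Hif1a (log2 fold change -0.0157 and -0.0162) and Gpnmb (-0.0219 and -0.0220) by limma, and, where 1 library was left out, Npm1 (-0.0916 to 0.0011, the latter without Neu replicate 4), Rel (-0.0950 to 0.00265, the latter without CTR replicate 4) and Rpa3 (-0.147 to 0.0277, the latter without CTR replicate 1). Cd68 lost its call under upper-quartile scaling (adjusted p = 0.19), under the filter on FPKM (0.155) and without CTR replicate 4 (0.05004). Prtn3 lost its call with no filter on low counts (adjusted p = 0.0622). P2ry12 gained one in 4 settings, and Hif1a and Gpnmb in 2 each. Counts within lists moved by over 1.5 times in 80 cases and by less in 2188. Among the 80 was the number of zinc finger genes called higher, which was 58 in the comparison and 38 by limma. Levels under 1 FPKM rest on few fragments.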
